A study of Mus musculus with 4 samples.

Results

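The array probes described here were those with a higher relative methylation signal in both pools of brain DNA from offspring of dams given titanium dioxide nanoparticles than in both vehicle pools. They were chosen by the measured values themselves. A probe qualified when the lower of the 2 TiO2-H values lay at least 0.2 above the higher of the 2 Sham values on the log2 scale, a factor of 1.15. The value was log2 of the signal from methylated DNA (Cy5) over that from untreated input DNA (Cy3), less the median over the autosomal probes on the same array. Of 85850 probes on the 19 autosomes, 20663 were eligible, meaning that input was well above background on all 4 arrays and methylated DNA on both TiO2-H arrays. Of these, 923 met the rule, which is 4.47% of the eligible probes. The rule asks that every TiO2-H value exceed every Sham value, so it does not depend on which Sham pool is set beside which TiO2-H pool. The difference that selected the probes is given below as a description, and no test was applied to it.

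The study asked whether prenatal exposure to nanoparticles alters DNA methylation in the newborn brain. Pregnant C57BL/6J mice (the strain field of the samples reads C57BL/6) received 25 uL of suspension into the trachea, with 100 ug TiO2 per mouse in the TiO2-H group and 0 ug in the Sham group. The sample names place this on gestational day 14 and the treatment protocol on gestational day 10.5. Whole brains were taken from offspring at 1 d of age, and DNA from 2 offspring of each dam was combined within a sex. There were thus 4 groups with 1 array each, namely Sham male and Sham female (5 dams each) and TiO2-H male and TiO2-H female (6 dams each). A pool averages its animals, so the spread between animals or litters was not measured, and no error over biological replicates can be given for any value.

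In mammalian DNA, methyl groups sit mainly on the cytosine of CG dinucleotides, and most CpG islands, the CG-rich stretches at many gene starts, carry few of them. Known exceptions are the control regions of imprinted genes, where the copy from 1 parent is methylated, and the starts of germline genes, which are methylated and silent in body tissues. Methylated DNA immunoprecipitation (MeDIP) enriches methylated fragments with an antibody against 5-methylcytosine, so a probe reports the fragments that cover it, not a single cytosine. The array carried CpG island regions of the mouse genome, and a fragment commonly spans several neighbouring probes. It holds no expression data, so the labelled tissue could not be checked against marker genes.

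The arrays were not alike. Methylated DNA was well above background at 51.2% of autosomal probes on the Sham male array, 58.8% on Sham female, 24.6% on labelled TiO2-H male and 32.9% on labelled TiO2-H female. The median absolute deviation of the centred values over autosomal probes was 1.08, 0.60, 0.91 and 1.04 in that order. X-linked probes had an input signal, against the autosomal median, of -0.75, 0.03, 0.03 and -0.74 on the log2 scale. The array labelled TiO2-H male thus lay with Sham female and the array labelled TiO2-H female with Sham male, against the labels, and each is called by its label here. Slide 1 held both arrays labelled male and slide 2 both labelled female, with Sham in position 1 and TiO2-H in position 2 of each, so exposure and position cannot be told apart.

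Among the members whose probe lies in the 250 bases before an annotated gene start, the 5 with the largest gap between the TiO2-H and the Sham values are shown by the promoter they lie in, since the CG dinucleotides there are what the antibody can read. Sequences are the RefSeq promoters of build GRCm38.p6, all from genes on the minus strand, written 5′ to 3′ on the gene's strand up to the base before the start, with each CG in capitals. Probe positions are of build mm9 and were not converted, so the probe is not marked within the sequence.
Npas4: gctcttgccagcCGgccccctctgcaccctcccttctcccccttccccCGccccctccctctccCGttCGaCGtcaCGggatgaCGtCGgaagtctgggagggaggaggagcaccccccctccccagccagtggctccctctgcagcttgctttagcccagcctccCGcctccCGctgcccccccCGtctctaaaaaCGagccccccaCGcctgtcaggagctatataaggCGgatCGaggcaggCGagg
Mthfsd: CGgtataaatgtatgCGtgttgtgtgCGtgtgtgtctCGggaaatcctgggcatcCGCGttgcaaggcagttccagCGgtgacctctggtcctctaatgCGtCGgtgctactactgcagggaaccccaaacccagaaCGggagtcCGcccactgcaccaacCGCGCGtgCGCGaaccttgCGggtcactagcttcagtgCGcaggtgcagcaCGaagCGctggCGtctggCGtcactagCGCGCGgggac
Lgr6: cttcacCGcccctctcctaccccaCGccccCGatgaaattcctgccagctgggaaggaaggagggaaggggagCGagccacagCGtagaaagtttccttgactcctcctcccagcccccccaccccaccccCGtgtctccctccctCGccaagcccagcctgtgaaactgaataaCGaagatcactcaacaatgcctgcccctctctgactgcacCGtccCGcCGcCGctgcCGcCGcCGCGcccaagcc
Taf7l2: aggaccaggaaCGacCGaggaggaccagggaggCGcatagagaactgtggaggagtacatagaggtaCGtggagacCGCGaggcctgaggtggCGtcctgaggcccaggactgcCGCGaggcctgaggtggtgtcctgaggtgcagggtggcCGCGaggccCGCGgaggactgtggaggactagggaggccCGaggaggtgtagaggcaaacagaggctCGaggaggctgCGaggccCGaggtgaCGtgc
Mycn: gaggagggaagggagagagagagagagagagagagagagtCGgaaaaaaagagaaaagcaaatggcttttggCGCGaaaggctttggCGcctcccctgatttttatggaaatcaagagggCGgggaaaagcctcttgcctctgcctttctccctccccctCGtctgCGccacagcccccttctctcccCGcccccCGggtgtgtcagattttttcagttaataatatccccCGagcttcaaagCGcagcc
Npas4 encodes an activity-induced transcription factor of neurons, and its promoter at chr19:4989972-4990221 held 16 CG. Mthfsd encodes a protein related to folate metabolism enzymes, and its promoter at chr8:121108338-121108587 held 25. The promoter of Lgr6, a receptor for R-spondins in Wnt signalling, lies at chr1:135105277-135105526 and held 16. The promoter of Taf7l2, a gene related to a subunit of the general transcription factor TFIID, lies at chr10:116113918-116114167 and held 18. That of Mycn, a transcription factor of neural progenitors, lies at chr12:12941837-12942086 and held 11. CG reads the same on both strands. In all, 37 members at 36 genes lay within 250 bases before a start, with a median of 18 CG per promoter. Of the 32851 RefSeq promoters of that length, 92.1% held at least 1 CG, with a median of 6 and quartiles of 2 and 16. The array was designed on CpG islands, so the higher CG number describes the array as well as these members. Eligible probes within 250 bases before a start were not counted. Neither the 37 nor the 18 can therefore be read as a trait of the members.

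The 923 probes had median centred log2 values of 1.18 on the Sham male array, 1.30 on Sham female, 1.82 on labelled TiO2-H male and 1.94 on labelled TiO2-H female. All of these lie above the autosomal median of the array, at a median of 2.27, 2.46, 3.52 and 3.84 times it. Eligibility, which asks for methylated DNA signal on both TiO2-H arrays, favours such probes, and the TiO2-H values are higher by the rule. All eligible probes had medians of 1.65, 1.09, 1.09 and 1.70 in the same order, so that on Sham male the members lay below them. The Sham male and labelled TiO2-H female arrays thus stood above the other two over the eligible probes as a whole, the same split as for X-linked input.

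**Figure D1:**
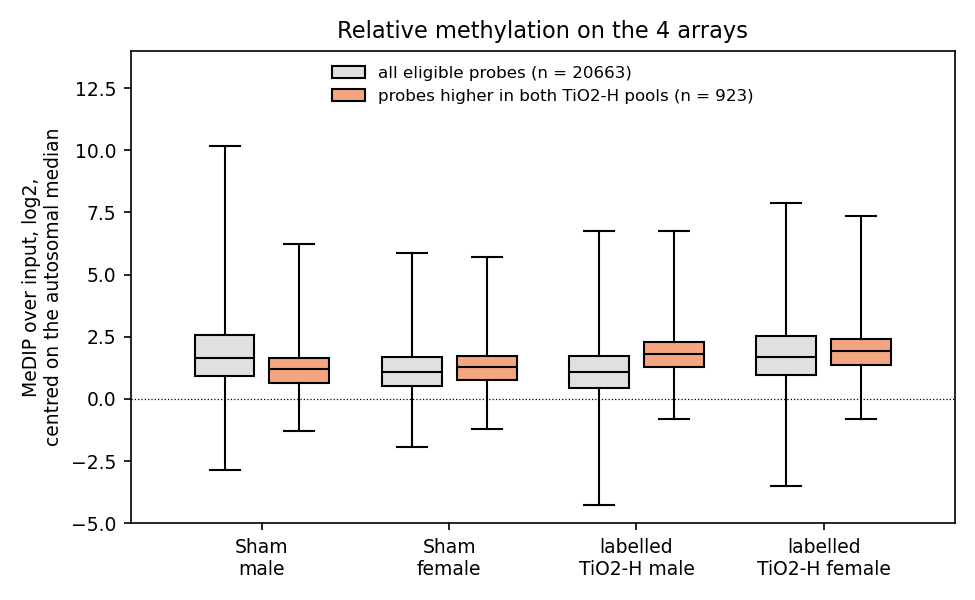
Centred log2 ratio of methylated over input DNA on the 4 arrays, for all 20663 eligible probes (grey) and the 923 probes higher in both TiO2-H pools (orange). Boxes give the quartiles and the median, whiskers the lowest and highest value; the orange medians rise from 1.18 and 1.30 in Sham to 1.82 and 1.94 in TiO2-H, while the grey ones are 1.65, 1.09, 1.09 and 1.70.

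The gap, which is the lower TiO2-H value minus the higher Sham value, had a median of 0.35 and quartiles of 0.26 and 0.48. Over all eligible probes its median was -0.68. It exceeded 0 in 2009 of the eligible probes (9.72%). The mean of the TiO2-H values exceeded that of the Sham values by a median of 0.63, or 1.55-fold. The scanner software's own error for this difference, which covers the spots and not the animals, had a median of 0.295 over the members. The difference was over 2 such errors in 515 members (55.8%) and in 864 eligible probes (4.18%). The 2 Sham values of a member differed by a median of 0.21 and its 2 TiO2-H values by 0.19, against 0.69 and 0.66 over all eligible probes. The rule favours probes with close pairs, so this closeness is part of the choice.

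Both channels were then looked at apart. Relative to its own autosomal median, Cy5 was higher on the TiO2-H arrays by a median of 0.90 in the members and by 0.27 in all eligible probes. The input channel hardly moved, with a median difference of -0.016 in the members and -0.013 in all eligible probes. Cy5 is the numerator of the value that chose the members, so this split is a description. The channels were centred apart, and their differences therefore do not add up to that of the ratio.

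By the 1.5-fold threshold within a labelled sex, 429 members (46.5%) were higher on labelled TiO2-H male than on Sham male, beside 3.54% of the eligible probes. Between labelled TiO2-H female and Sham female the number was 533 (57.7%), beside 56.3% of the eligible probes. In the comparison labelled female the share of members was near the background. Over all eligible probes the 2 labelled comparisons shifted by medians of -0.63 and 0.66. With the pairs set by X-linked input instead, an alternative chosen after seeing the data, 336 members (36.4%) were 1.5-fold higher on labelled TiO2-H male than on Sham female, beside 5.54% of the eligible probes. Between labelled TiO2-H female and Sham male there were 622 (67.4%), beside 11.8%. In the labelled pairs both thresholds were passed by 227 members (24.6%), beside 1.23% of the eligible probes. A gap of 1.5-fold or more was found in 132 members, and one of 2-fold or more in 9. These counts use the values that chose the members and are a description.

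The opposite rule, with both TiO2-H values at least 0.2 below both Sham values and methylated DNA well above background on both Sham arrays, was met by 4512 of 39291 eligible probes (11.5%). A larger share of the probes eligible there was thus lower in both TiO2-H pools than was higher in both here.

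The 9 members with a gap of 2-fold or more and the 3 that follow them are given with their values. The largest gap lay inside Tenm3 (chr8:49314031-49314075), which encodes a teneurin, a transmembrane protein that guides neuronal wiring. It had log2 values of 1.43 on Sham male, 1.82 on Sham female, 3.08 on labelled TiO2-H male and 3.06 on labelled TiO2-H female, a gap of 1.24. The 2 TiO2-H values were nearly equal and both Sham values lay well below them. Of 4 eligible probes in this region 3 were members, and in the fourth, with a gap of -0.48, the groups overlapped.

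Mgarp, which encodes a mitochondrial protein, had a probe inside the gene (chr3:51200267-51200311) at 2.99 and 2.95 in Sham and 4.24 and 4.09 in TiO2-H. A probe with no gene symbol here (chr2:18610919-18610963) had 0.21, 0.56, 1.79 and 1.64, the lowest Sham values of the 12. Its Cy5 signal was not well above background on the Sham male array. With it raised to the lowest signal called well above background there, labelled TiO2-H male was 2.97-fold higher. Rbfa, a ribosome binding factor of mitochondria (chr18:80389262-80389306), had 1.39, 1.23, 2.46 and 2.46. In this member each array of a group gave nearly the same value.

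Plxnb2, a receptor for semaphorins in axon guidance (chr15:88998029-88998073), had 1.28, 1.25, 2.47 and 2.34. Tma16, a ribosome biogenesis factor (chr8:69010075-69010123), had 1.53, 1.54, 3.46 and 2.59, so the array labelled TiO2-H male stood highest. The promoter probe of Rpl10a, a protein of the large ribosomal subunit (chr17:28465275-28465320), had 3.59, 3.50, 4.63 and 4.93. Of the 12, only Ppfia3 had a higher Sham male value.

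Chst13, a chondroitin sulfotransferase (chr6:90259348-90259392), had 1.37, 1.52, 2.59 and 2.55. Ppfia3, which encodes liprin-alpha-3 of the presynaptic active zone (chr7:52602361-52602407), had 4.16, 4.41, 5.42 and 5.96, the highest values of the 12 on every array. The remaining 3 were named through the region they lie in.

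The probe near Peg10, an imprinted gene expressed from the paternal copy (chr6:4698292-4698336), had 1.11, 0.95, 2.11 and 2.18. The one near Ptprs, a receptor tyrosine phosphatase of axons (chr17:56568653-56568712), had 2.23, 3.58, 4.57 and 5.06, with the Sham values farther apart than in any other of the 12. The one near Cfap206, a protein of motile cilia (chr4:34663760-34663804), had 0.56, 1.60, 2.89 and 2.58. Its Cy5 was not well above background on Sham male. With it raised to the lowest signal called so on that array, the fold was 3.33. In each of the 12, the Sham and TiO2-H values do not overlap, as the rule requires. Their neighbours differed. In the Rbfa region 2 of 4 eligible probes were members, and in that of Ptprs 2 of 7, with median gaps of -0.10 and -0.45. The regions of Chst13 and Peg10 had 3 of 8 and 2 of 3, with median gaps of 0.12 and 0.35. Another eligible probe in the region of Ppfia3 had a gap of -1.51.

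The gap of these 12 probes depended on how the arrays were scaled. When the 4 arrays were set to a common spread, it fell below 0 in 8, namely Tenm3, Mgarp, Tma16, Rpl10a, Chst13, Ppfia3, Ptprs and Cfap206. Under quantile normalization it was below 0 for Mgarp, Rpl10a, Ppfia3 and Ptprs, under loess for Mgarp and Ppfia3, and under the normexp background correction for Ppfia3. For the unnamed probe on chromosome 2, Rbfa, Plxnb2 and Peg10 it stayed above 0 in all 8 scalings tried, with lowest values of 0.42, 0.24, 0.16 and 0.10.

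At the threshold, the 3 members with the smallest gap had 0.2001 (chr5:130620533-130620578), 0.2002 (chr4:149111715-149111759) and 0.2002 (Lnx1, an E3 ubiquitin ligase, chr5:75016038-75016082). The 3 eligible probes just outside had 0.1998 (chr9:7764299-7764343), 0.1994 (the promoter of Micu3, a regulator of mitochondrial calcium uptake, chr8:41393101-41393145) and 0.1992 (near Snrnp70, a U1 spliceosome protein, chr7:52651175-52651219). The values run through the threshold without a break.

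Support from neighbouring probes was measured next, since a methylated fragment can cover several probes of a region. Within 1000 bp, 754 members had at least 1 other eligible probe and 169 had none. Of the 754, 266 had another member among these neighbours and 488 had none. Counted once each, the members had 1573 eligible neighbours, of which 266 were members (16.9%, Wilson 95% interval 15.1 to 18.8, covering counting error only). The interval takes the neighbours as independent, which those sharing fragments are not. The share of 16.9% is above the 4.47% of all eligible probes. A gap above 0 was found in 29.2% of the neighbours, against 9.72% of all eligible probes, and their median gap was -0.35 against -0.68. Most neighbours thus had a gap below 0.

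The share fell with distance. It was 29.1% for neighbours up to 100 bp from a member, 25.4% over 100 to 200 bp, 18.8% over 200 to 400 bp, 16.3% over 400 to 800 bp, 13.2% over 800 to 1600 bp and 10.5% over 1600 to 3200 bp. Among all eligible probes with an eligible neighbour in the same distance class, 4.99 to 6.05% were members. Neighbours share fragments and are no independent measurements, and a pair of probes in 1 pool is no replicate.

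**Figure D2:**
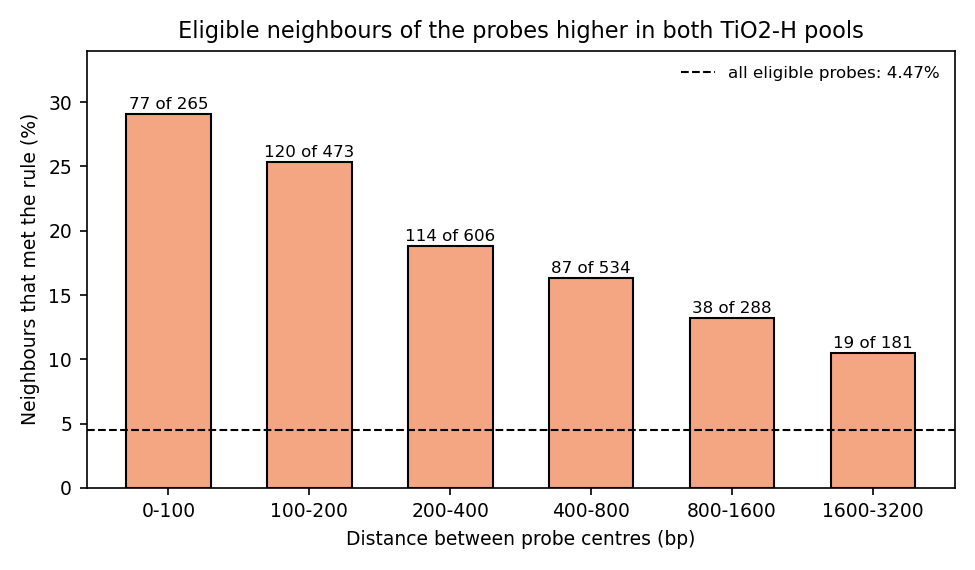
Percent of eligible neighbours that met the rule, by distance in bp from a probe that met it, with counts over the bars; a neighbour with members at several distances stands in several bars. The bars fall from 29.1% to 10.5%, all above the dashed line at 4.47% for all eligible probes.

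Neighbour support differed with the input signal. The eligible probes were put into 5 equal classes by it. In the dimmest class 39.3% of the neighbours were members against 12.8% of all eligible probes there, and in the next class 12.0% against 4.72%. In the other three the shares were 4.00, 4.55 and 0% of the neighbours, against 2.52, 1.48 and 0.774% of the eligible probes. It also moved with the scaling. After quantile normalization, 2.55% of the neighbours were members against 2.17% of the eligible probes, and after a common spread 0 of 331 neighbours against 1.13%. With no centring the share was 7.36% against 1.59%, and with normexp 6.15% against 0.61%.

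The members fell into 754 array regions, defined as runs of probes with gaps of at most 1000 bp, of 10214 regions with an eligible probe. A single member was present in 645 regions. The other 109 held 278 members, with 76 regions of 2 members, 18 of 3, 7 of 4, 5 of 5, 2 of 6 and 1 of 7. Of the 33 regions with 3 or more members, 27 had a median gap above 0 over all their eligible probes. The members that picked these regions enter that median, so it is a description and no separate support. In 2 regions with at least 3 eligible probes every one was a member.

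The region with the most members lay at Plec, which encodes the cytoskeletal linker plectin (chr15:76008957-76012444). It was also long, and 7 of its 23 eligible probes were members. The median gap over the 23 was -0.03, so the region as a whole did not separate the groups. The region at Shroom3, an actin-binding protein of neural tube closure (chr5:93370523-93372008), had 6 members of 7 eligible probes.

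The medians of the 7 eligible probes at Shroom3 were 1.66 on Sham male, 1.82 on Sham female, 2.61 on labelled TiO2-H male and 2.75 on labelled TiO2-H female, and all 7 gaps lay above 0. The seventh probe missed the threshold with a gap of 0.18. The probe with the largest gap of the run, 0.87, had Cy5 well above background on neither Sham array. With each raised to the lowest signal called well above background on its array, the gap was 0.77.

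Repin1, a zinc finger protein (chr6:48546831-48547844), had 6 members of 8, with medians over the eligible probes of 1.54, 1.59, 2.11 and 2.07 in the same order of arrays. Zfp647, a zinc finger gene (chr15:76741648-76742385), had 5 of 6, with medians of 1.23, 1.49, 1.93 and 2.06 and all 6 gaps above 0. The members in both regions followed each other along the genome. In Repin1 the 2 eligible probes at the start of the run were not members.

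Sbk1, a protein kinase gene (chr7:133435519-133436346), had 5 of 8, Klhl26, a kelch protein gene (chr8:72975528-72976640), 5 of 7 and Myo10, the filopodial motor myosin X (chr15:25710801-25711656), 5 of 6. In Myo10 the medians of the eligible probes were 1.19, 1.54, 2.06 and 2.34, so the TiO2-H arrays were higher by 0.78 at the median. Map1s, a microtubule-associated protein (chr8:73436840-73438754), had 5 of 14 with a median gap of -0.03. Zfp775, another zinc finger gene (chr6:48569573-48570386), had 4 of 6.

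The runs also depended on scaling. With a common spread no region had 2 or more members, and with quantile normalization 10 had, with normexp 9, with no centring 21 and with loess 49. For Shroom3 the members then numbered 0 with a common spread, 1 with quantile normalization, 4 with no centring and 3 with loess.

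**Figure D3:**
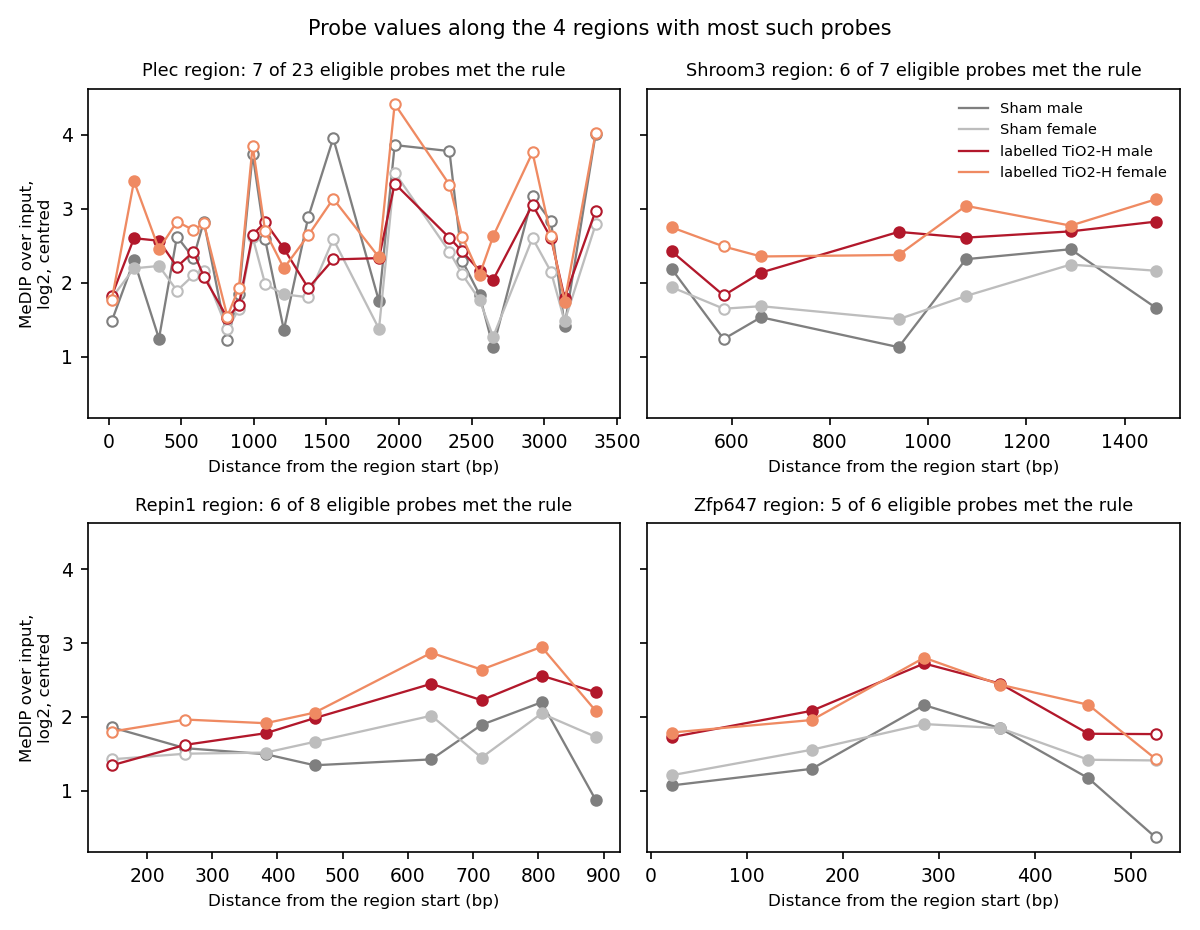
Centred log2 ratio of methylated over input DNA along the Plec, Shroom3, Repin1 and Zfp647 regions, by distance in bp from the region start, with a line for each array through the eligible probes. Filled points mark probes that met the rule; the TiO2-H lines (red, orange) lie above the Sham lines (grey) at 6 of 7 probes in Shroom3 by at least 0.2, and cross them in Plec, where 7 of 23 met it.

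Gene symbols were available for 658 members at 483 genes, 480 by an entry of their own and 178 through their region, and 265 members had none. Of the 480, the annotation placed 380 inside a gene, 81 in a promoter, 14 in a divergent promoter and 5 downstream. The 2263 eligible probes with an entry of their own were not counted by place. These numbers can therefore not be read as a preference of the members. Symbols came from a list that the study ordered by the fold in male offspring, so a named probe was more often a member, at 658 of 7668 eligible named probes (8.58%). The gene groups below are set beside that share.

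Imprinted genes held 17 members among 64 eligible named probes (26.6%). Of the 30 genes in the list, 14 had such a probe, and 9 of these held a member. Over all genes with a symbol, 483 of 2955 did (16.3%). An imprinted gene had more such probes, 64 at 14 genes against 7668 at 2955, so the shares of genes are not on equal terms. The 9 genes were Gnas, Grb10, Cdkn1c, Peg10, Airn, Kcnq1ot1, Mcts2, Peg3 and Plagl1. Gnas encodes the stimulatory G protein alpha subunit, and 5 of its probes were members. The largest of these gaps at Gnas was that of chr2:174125914-174125958, with 1.36 on Sham male, 1.13 on Sham female, 2.07 on labelled TiO2-H male and 1.96 on labelled TiO2-H female. Of the 15 eligible probes of Gnas only 6 had a gap above 0, and the lowest gap was -3.51.

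Grb10, an adaptor that restrains growth factor signalling, had 3 adjacent members. The probe at chr11:11926301-11926345 had 0.67, 0.64, 1.50 and 1.19, and the TiO2-H values lay above the Sham ones. Cdkn1c, an inhibitor of the cell cycle, had 2 members, of which chr7:150647314-150647358 had 0.18, 0.48, 1.08 and 1.21. Peg3, a paternally expressed zinc finger gene, had 1 member with 0.81, 1.14, 1.94 and 1.55, and Plagl1, a zinc finger transcription factor, 1 with 1.27, 0.78, 1.85 and 2.05. Airn and Kcnq1ot1, the noncoding RNAs that silence their imprinted clusters, and Mcts2 had 1 each, with gaps of 0.27, 0.31 and 0.30. Each of the 9 genes also had at least 1 eligible probe with a gap below 0. The median gap over a gene's eligible probes was above 0 for Grb10 (0.18), Mcts2 (0.08) and Peg10 (0.35), and below 0 for Airn (-0.19), Cdkn1c (-0.46), Gnas (-0.13), Kcnq1ot1 (-0.25), Peg3 (-0.55) and Plagl1 (-0.71).

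Germline genes held 7 members among 41 eligible named probes (17.1%), at 5 of the 11 genes with such a probe. Dazl, an RNA-binding protein of germ cells (chr17:50432800-50432844), had 1.54, 1.87, 2.57 and 2.48. Dmrtb1, a transcription factor of spermatogonia, had 2 members, and Sycp1, of the synaptonemal complex of meiosis, had 2. Sycp3 of the same complex and Mov10l1, a helicase of the piRNA pathway, had 1 each. The gaps of these 7 lay between 0.33 and 0.64. Over all eligible probes of a gene the median gap was 0.45 for Dmrtb1, 0.20 for Sycp1 and 0.14 for Mov10l1, but -0.13 for Dazl and -1.03 for Sycp3.

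Neural patterning factors held 1 member among 81 eligible named probes (1.23%), at 1 of the 22 genes with such a probe. It was in Neurog2, a proneural transcription factor (chr3:127336734-127336778), with 2.97, 2.85, 3.34 and 3.92. Hox genes held 1 of 20, at Hoxd11, clustered protocadherins 2 of 10, both at Pcdhga3, genes of oxidative stress and metal response 1 of 9, at Keap1, and the DNA methylation machinery 0 of 5. The last groups are too small for a share to be read.

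The lists also differed in input signal, which moved with membership. The eligible probes had a median centred log2 input of 0.51 for imprinted and 0.26 for germline genes, against 0.85 for neural patterning factors and 0.81 for all named probes. Its part in these shares was not tested. Under the other scalings imprinted members numbered 1 of 64 with normexp, 4 with a common spread and with spot minus local background, 6 with no centring, 7 with quantile normalization, 8 when centred on the eligible probes, 9 with loess and 22 with the deposited log ratios. All named probes had 1.40, 1.49, 2.20, 3.40, 3.74, 7.47, 5.23 and 11.4% members in the same order of scalings. Germline members fell to between 0 and 2 of 41 in 6 of these scalings, and were 6 with loess and 12 with the deposited log ratios. Neural patterning members numbered 0 to 2 of 81 in 7 of these scalings and 4 (4.94%) when centred on the eligible probes, where germline members were 2 of 41 (4.88%).

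The input signal, which enters the rule as a filter and as the denominator of the ratio, differed between members and other eligible probes. The members' median centred log2 input was 0.02, against 0.88 for all eligible probes. Members made up 16.9% of the dimmest of 10 equal classes of eligible probes by input, 8.76% of the next and 0.726% of the brightest. The mirrored probes, lower in both TiO2-H pools, showed the opposite, with a median input of 1.14 against 0.70 for the probes eligible there. In spot signal less local background, the members' Cy5 had medians of 13.7, 13.5, 8.85 and 10.7 intensity units on the 4 arrays, at a local background of 14.5 to 15. Over all eligible probes these medians were 35.3, 23.0, 9.77 and 16.4. In both sets the TiO2-H arrays were dimmer before any scaling. On every array the members' median excess over the local background was smaller than that background itself. The part of input level and dim signal in the result was not tested.

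**Figure D4:**
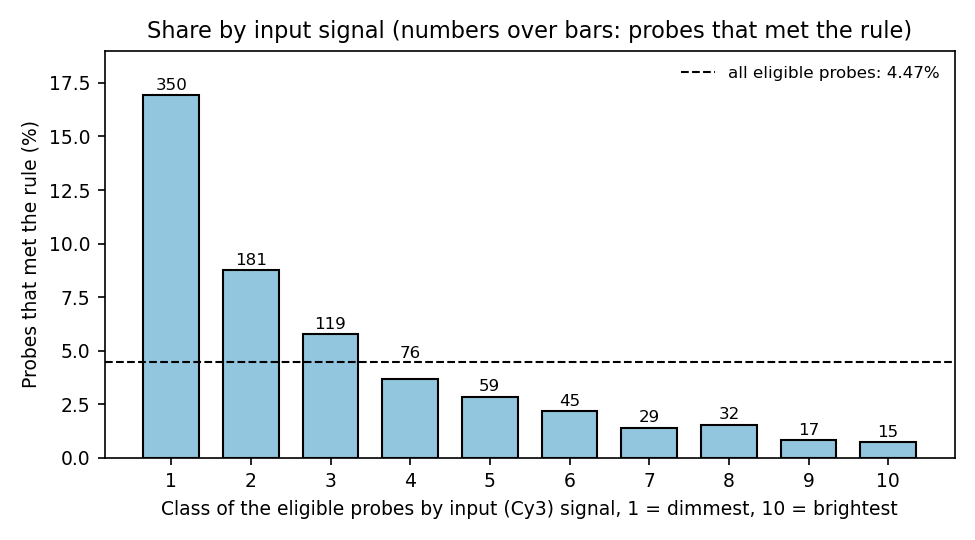
Percent of eligible probes that met the rule in each of 10 equal classes by input (Cy3) signal, from the dimmest (1) to the brightest (10), with the number of probes over the bars. The share falls from 16.9% to 0.726%, against 4.47% over all classes.

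The Cy5 signal was well above background on all 4 arrays in 896 members, and on 1 Sham array or both it was not in 27. In 23 of the 27 a Sham signal lay below the lowest one called well above background on its array and was raised to it. In 4 the signals already exceeded that level. All 27 still met the rule, but the gap uses only the higher Sham value. Raising changed that value only at the Shroom3 probe, so the outcome was nearly fixed beforehand. Probes longer than 45 bases made up 10.2% of the members and 5.14% of the eligible probes. The outermost probe of a region was 28.2% of the members and 21.9% of the eligible probes, and regions of 3 or fewer probes held 12.2 and 9.35%. Members were spread over all autosomes, from 3.25% of the eligible probes on chromosome 16 to 6.06% on chromosome 8. Over 4 bands of rows and 4 of columns of the array, the largest departure was 29.0% of the members against 26.4% of the eligible probes in the last band of columns.

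How many probes met the rule, and which, depended on the scaling. Centred on the eligible probes in place of all autosomal ones, 863 probes met it, of which 312 were among the 923. With no centring 329 met it, with quantile normalization 449, with loess 579, with a common spread 233, with spot minus local background 228 and with normexp 126. Over these 6 scalings, 311 members met the rule in none and 7 in all. The 7 were the unnamed probe on chromosome 2 described above, Rbfa, Kcnma1, Slc43a2, Bsdc1, Fign and an unnamed probe at chr10:59079517-59079561. Kcnma1 encodes a calcium-activated potassium channel, Slc43a2 an amino acid transporter and Fign a microtubule-severing enzyme. Kcnma1, at its promoter (chr14:24824321-24824365), had 1.96, 1.29, 3.14 and 2.90, with Cy5 not well above background on Sham female. The same held for Bsdc1 on Sham female and for the unnamed probe on chromosome 2 on Sham male. All 7 were dimmer in input than the typical member, with Cy3 signals between 149 and 572. The members' median Cy3 was 912 on Sham male, 832 on Sham female, 730 on labelled TiO2-H male and 706 on labelled TiO2-H female.

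**Figure D5:**
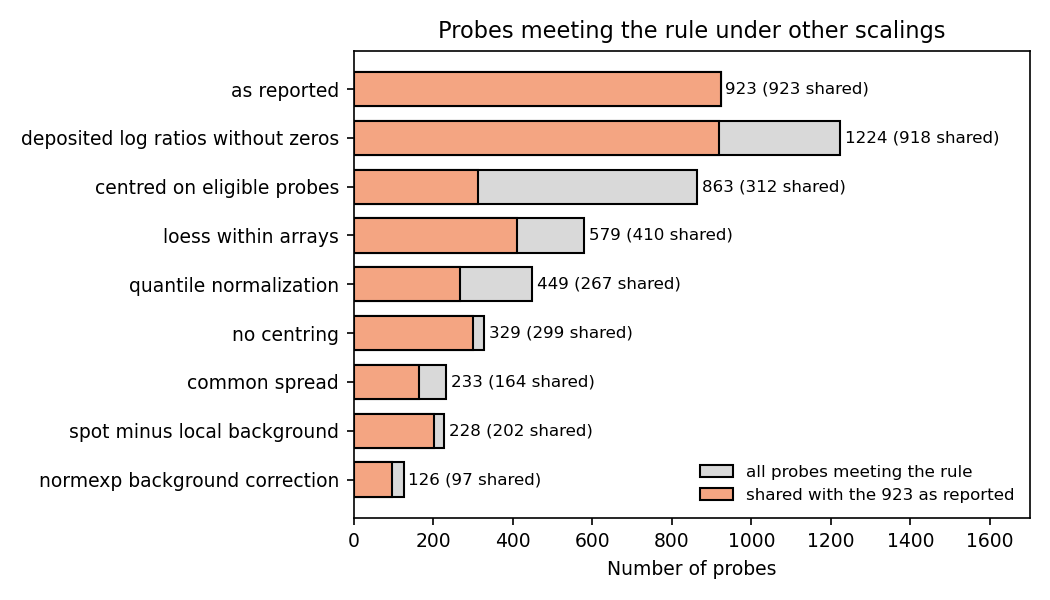
Number of probes that met the rule under each scaling of the arrays, with the part shared with the 923 in orange. The total runs from 126 to 1224 and the shared part from 97 to 918 over the 8 other scalings.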

How the data were processed

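Per the file headers, the authors scanned the 2-colour arrays (methylated DNA in Cy5, input in Cy3) with Agilent Feature Extraction 10.7.3.1, and the deposited processed signals are linear intensity values after background subtraction and 1 scaling factor per dye and array. The deposited log ratios are log10 of processed Cy5 over Cy3, and the deposited log10 errors come from the scanner's error model. Here the log2 of processed Cy5 over Cy3 was centred on each array's median over autosomal probes without control spots. The members and lists were chosen with earlier results of these data known. With 1 array per group no test was made. The precision is limited by the number of arrays. Coordinates are of build mm9.

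Named were the 12 members with the largest gap, the 10 regions with the most members (ties by median gap), the 3 probes on either side of the threshold, and members at genes of the lists. Of these, 1 region and 1 list are not reported here. Members in all scalings and the 5 promoters were named after their values were seen. Symbols came from the study's probe list, of which a part read from page images was used, kept where the position equalled that of the scanner file and RefSeq (GRCm38.p6) held the gene on that chromosome. Of 5384 entries 5052 matched.

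Alternatives were other centring, a common spread (each array divided by its median absolute deviation), quantile normalization, limma 3.58.1 in R 4.3.3 for normexp (offset 50) and loess, spot minus local background, the deposited log ratios without zeros, other thresholds, neighbour distances and filters, and leaving out 1 array. Normexp and spot minus background used median spot signals, since mean signals were not used here. The rule and the neighbour count were tested on simulated data. No column of the series table was left unmapped.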

Additional observations from a re-analysis of the deposited data

How the results depend on the processing

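The number of probes meeting the rule was within 1.5 times of 923 when centred on the eligible probes (863), with the deposited log ratios (1224), with Cy5 well above background on all 4 arrays (896) and without probes with an outlier flag (923). It was 329 with no centring, 233 with a common spread, 449 with quantile normalization, 579 with loess, 126 with normexp, 228 with spot minus local background, and 6897 of 80488 with no condition on Cy5. At a gap above 0 it was 2009, at 0.1 1409, at 0.4 371 and at 1.5-fold 132. Leaving out 1 array, chosen after seeing the data, gave 1143 to 5758, with 5626 without Sham male, 1737 without Sham female, 5758 without labelled TiO2-H male and 1143 without labelled TiO2-H female. The neighbour share of 16.9% was 16.9% with Cy5 on 4 arrays, 23.3% within 250 bp, 18.998% within 500 bp, 12.7% over 800 to 2000 bp, 2.55% with quantile normalization, 0% with a common spread, 6.15% with normexp and 7.36% with no centring. Added later, it was 33.1% (186 of 562) when only neighbours in the same of 5 classes of input were counted. That share has no background matched in this way beside it. In the dimmest class 12.8% of all eligible probes were members, against 4.47% over all classes. Regions with 2 or more members numbered 109, with 108 and 109 at gaps of 500 and 2000 bp, 106 with Cy5 on 4 arrays, 10 with quantile normalization, 0 with a common spread, 9 with normexp, 21 with no centring and 49 with loess. The members' median gap of 0.35 was 0.025 with quantile normalization, 0.087 with no centring and 0.17 with loess, and turned to -0.31 with a common spread and -0.022 with normexp. The cause was not tested. No paired analysis was made, since each group had 1 pooled array and no result comes from a test. Each slide held a Sham and a TiO2-H array, but pairs by label and pairs by X-linked input differ. Many signals lay near background, and no error between animals, litters or arrays of 1 group can be had.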

Other observations

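On chromosome X, which the rule leaves out, 717 probes passed the same filters and 26 met the same threshold (3.63%), a share close to the 4.47% of the autosomes.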
